A study of Homo sapiens with 12 samples.

Results

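A set of 7 genes of the RAS, RAF, MEK and ERK cascade was examined for peaks of N4-acetylcytidine (ac4C), an acetyl mark on cytidine in RNA. They were the RAS GTPase genes HRAS and NRAS, the RAF kinase genes ARAF and BRAF, the MEK genes MAP2K1 and MAP2K2, and the ERK gene MAPK3. They were taken by name, 7 of the 15843 protein-coding genes whose strand was known, and a listed peak was assigned to a gene when its midpoint lay in the gene's GRCh38 span on the same strand. All libraries came from SW620, a human colorectal cancer cell line grown in culture. The 3 control libraries, labelled shControl with genotype WT, came from cells with a control short hairpin RNA, and the 3 shNAT10 libraries came from cells in which NAT10, the enzyme that writes ac4C, was knocked down. Knockdown lines in the study were made by lentiviral infection, and which of its NAT10 hairpins these cells carried is not given in the sources used here. All 6 libraries were immunoprecipitates made with an antibody against ac4C, a method called acRIP-seq, and the matching input samples were not analysed here. The comparison asked which transcripts carry ac4C that differs after NAT10 knockdown. The labels do not say that replicates were separate cultures, so each p-value measures only the spread between these libraries, which may be technical.

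Growth factor receptors load RAS with GTP, RAS then recruits RAF kinases to the membrane, RAF phosphorylates MEK, and MEK phosphorylates ERK, which carries the signal to the nucleus. In the colon epithelium the cascade drives proliferation, and it is frequently activated by mutation in colorectal cancer, where it also affects the response to antibodies against the epidermal growth factor receptor. NAT10 acetylates ribosomal and transfer RNA as well as messenger RNA, and its sites in the first of these lie in the triplet CCG.

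The lists held 18241, 22619 and 20063 peaks in the control libraries and 28752, 17877 and 19047 in the shNAT10 libraries. Each peak had a score from the authors' caller, from 50 upwards, and between 7.61% and 13.7% of a library's peaks sat at exactly 3100, so scores were read only as a percentile within their own library. No read counts were listed and depth was unknown. Joining same-strand peaks that shared 1 or more bases gave 41755 regions, and 9195 of them were found in all 6 libraries. The share of regions common to a pair of libraries ran from 0.442, between shControl 1 and shNAT10 1, to 0.660, between shNAT10 2 and shNAT10 3. Pairs within a group went down to 0.466, between shNAT10 1 and shNAT10 2. Pairs across the groups went up to 0.579, between shControl 3 and shNAT10 3, so the 2 ranges overlapped. shControl 3 shared less with the other control libraries, at 0.515 and 0.491. Within NAT10 itself the libraries listed 1, 0 and 2 peaks in control and 2, 0 and 1 after knockdown, which cannot serve as a check of the knockdown because peaks are not a level of mRNA. Of 9 intestinal epithelial markers, 8 had a peak and 5 had one in every library (11 to 21 peaks per library for the list), while KRT18 had none. A peak in any library was listed for 1 of 5 fibroblast, 1 of 4 leukocyte and 2 of 3 endothelial markers (0 to 4 peaks per library for a list), and COL3A1, PTPRC and PECAM1 had none.

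Of the 7 genes, 6 had a peak in all 6 libraries, against 4906 of all genes, and NRAS had none in any. Those 6 genes held 79 peaks in 18 merged regions, numbered here from the 5′ end of each gene. The control libraries listed 12, 13 and 11 of these peaks and the shNAT10 libraries 16, 13 and 14, which is 0.658, 0.575 and 0.548 per 1000 listed peaks in control and 0.556, 0.727 and 0.735 after knockdown. On either count the groups overlapped. The regions recurred with the same boundaries: 10 of the 18 regions (55.6%) were in all 6 libraries, against 22.0% of all regions, and each of those 10 had the same outer start and end in every library, against 69.5% of all regions found in all 6. Some edges fell exactly on the end of the gene span: 532242 in HRAS region 2 and 4090321 in MAP2K2 region 5. Whether peak boundaries follow annotation was not tested, so shared boundaries need not show repeated placement of the signal. The 10 regions also lay high in the lists. Their median percentile of score was 89.5, against 69.3 over all shared regions, and 3 of the 10 sat at or above 3100 in every library, against 933 (10.1%) of all shared regions. These shares are given as a description and were not tested.

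Regions at 3100 in all 6 libraries covered the 5′ ends of MAP2K1 and MAP2K2. A peak near the start of BRAF was in all 6 libraries, at 3100 in shNAT10 1 and lower in the others. Lower-scored peaks lay at or near the starts of ARAF, in 5 libraries, and of HRAS, in shControl 1 alone. The sequences under the peaks of MAP2K1, MAP2K2, HRAS and ARAF, up to the 30th transcribed base or within the peak for HRAS, are printed because they show what lies under a peak at the annotated start, much of it upstream of that start in MAP2K1 and ARAF. They are read 5′ to 3′ on the transcript's strand from RefSeq start windows of GRCh38.p14, with CCG in capitals. The MAP2K1 stretch is chr15:66386817-66386941 on the plus strand, with 95 bases upstream of the annotated start. The MAP2K2 stretch is chr19:4124093-4124129 on the minus strand, with 7 bases upstream. The HRAS stretch is chr11:535527-535550 on the minus strand, inside the gene. The ARAF stretch is chrX:47561100-47561234 on the plus strand, with 105 bases upstream, and its peak was not counted in the gene because its midpoint lay upstream of the span.
MAP2K1: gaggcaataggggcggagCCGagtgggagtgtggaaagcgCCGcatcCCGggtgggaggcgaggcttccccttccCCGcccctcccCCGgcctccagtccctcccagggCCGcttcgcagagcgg
MAP2K2: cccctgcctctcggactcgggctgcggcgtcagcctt
HRAS: tgccctgcgcCCGcaacCCGagcc
ARAF: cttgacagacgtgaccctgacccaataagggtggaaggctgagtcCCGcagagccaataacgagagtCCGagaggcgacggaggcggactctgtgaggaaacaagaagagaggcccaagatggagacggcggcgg
Upstream of the annotated start, CCG occurred 5 times in the MAP2K1 stretch and 2 times in that of ARAF. From the start on it occurred 1 time in MAP2K1, 2 times in HRAS and 0 times in ARAF and MAP2K2. The triplet was searched on the transcript's strand only, and it cannot overlap itself. Over all genes, 62.0% of 22199 RefSeq start windows held a CCG in their first 50 transcribed bases, a window of another length than the printed stretches, so the counts cannot be set against that share. MAP2K1 and MAP2K2 each had 2 such windows, 1 of them with a CCG in those 50 bases. The printed counts therefore depend on the start used. NRAS, which had no peak, held a CCG in its 1 window. A match marks letters and not an acetylated base.

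HRAS, which encodes a membrane-bound GTPase that switches RAF on, had 2, 1 and 1 peaks in control and 1, 1 and 1 after knockdown. The means were 1.33 ± 0.577 (SD, n = 3) and 1 ± 0, and the groups overlapped (two-sided exact permutation test, p = 1). The HRAS region chr11:532242-532755, lay 92.3% of the way along the gene span, toward its 3′ end. It had a score of 3100 in all 6 libraries, the value at which the scores pile up, so differences among peaks tied there would not be visible. That value was not the highest, as 44 to 126 peaks per library scored above it. The other, chr11:535416-535550, lay 0.093 kb from the start and was listed in shControl 1 alone, at percentile 16.6. NRAS, a close relative with the same role, spans chr1:114704469-114716771 and had no listed peak on either strand in any library. The lists start at a score of 50, so a weaker enrichment of NRAS, or too few reads on it, cannot be told apart from absence.

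ARAF, the X-linked RAF kinase, had 1, 3 and 1 peaks in control and 3, 1 and 2 after knockdown, with means of 1.67 ± 1.15 and 2 ± 1 (SD, n = 3; two-sided exact permutation test, p = 1). The 2 libraries with the longest lists, shControl 2 and shNAT10 1, were those with 3 peaks. The ARAF region chrX:47567230-47567432, at 57.2% of the span, was in every library, at percentiles 81.8, 81.9 and 93.2 in control and 92.7, 81.7 and 86.2 after knockdown. Those ranges overlapped. The other ARAF regions came and went between libraries of the same group. Region 1, chrX:47562909-47563063, was listed in shControl 2 at percentile 21.6, in shNAT10 1 at 4.63 and in shNAT10 3 at 12.5. Region 2, chrX:47565252-47565614, was listed in shControl 2 at 68.7 and shNAT10 1 at 21.7. The peak at ARAF's start, printed above, was in 5 libraries, at percentiles 44.5, 1.84 and 35.5 in control and 6.43 and 4.63 in shNAT10 1 and 3, with no peak in shNAT10 2. It was therefore near the bottom of the list in shControl 2, shNAT10 1 and shNAT10 3, and ranked higher in shControl 1 and 3. The groups overlapped only through shControl 2, which ranked it below both shNAT10 libraries that listed it. A peak on the opposite strand, chrX:47571898-47572999, reached into ARAF's 3′ end in shControl 3, shNAT10 1 and shNAT10 3 and was not counted.

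BRAF, the RAF kinase most often mutated in cancer, had 1, 2 and 1 peaks in control and 1, 1 and 1 after knockdown, with means of 1.33 ± 0.577 and 1 ± 0 (SD, n = 3; two-sided exact permutation test, p = 1). Although BRAF spans 212 kb, its 1 recurrent region, chr7:140924566-140924928, lay 0.182 kb from the start. It ranked at percentiles 76.3, 70.8 and 63.5 in control and 92.7, 59.6 and 52.2 after knockdown. The shNAT10 libraries thus held both the highest and the lowest ranks of this region, with shNAT10 1 at the score of 3100 and the other two below every control library. The second BRAF region, chr7:140749287-140749377, was listed in shControl 2 alone at percentile 0.46, near the bottom of that list.

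**Figure D1:**
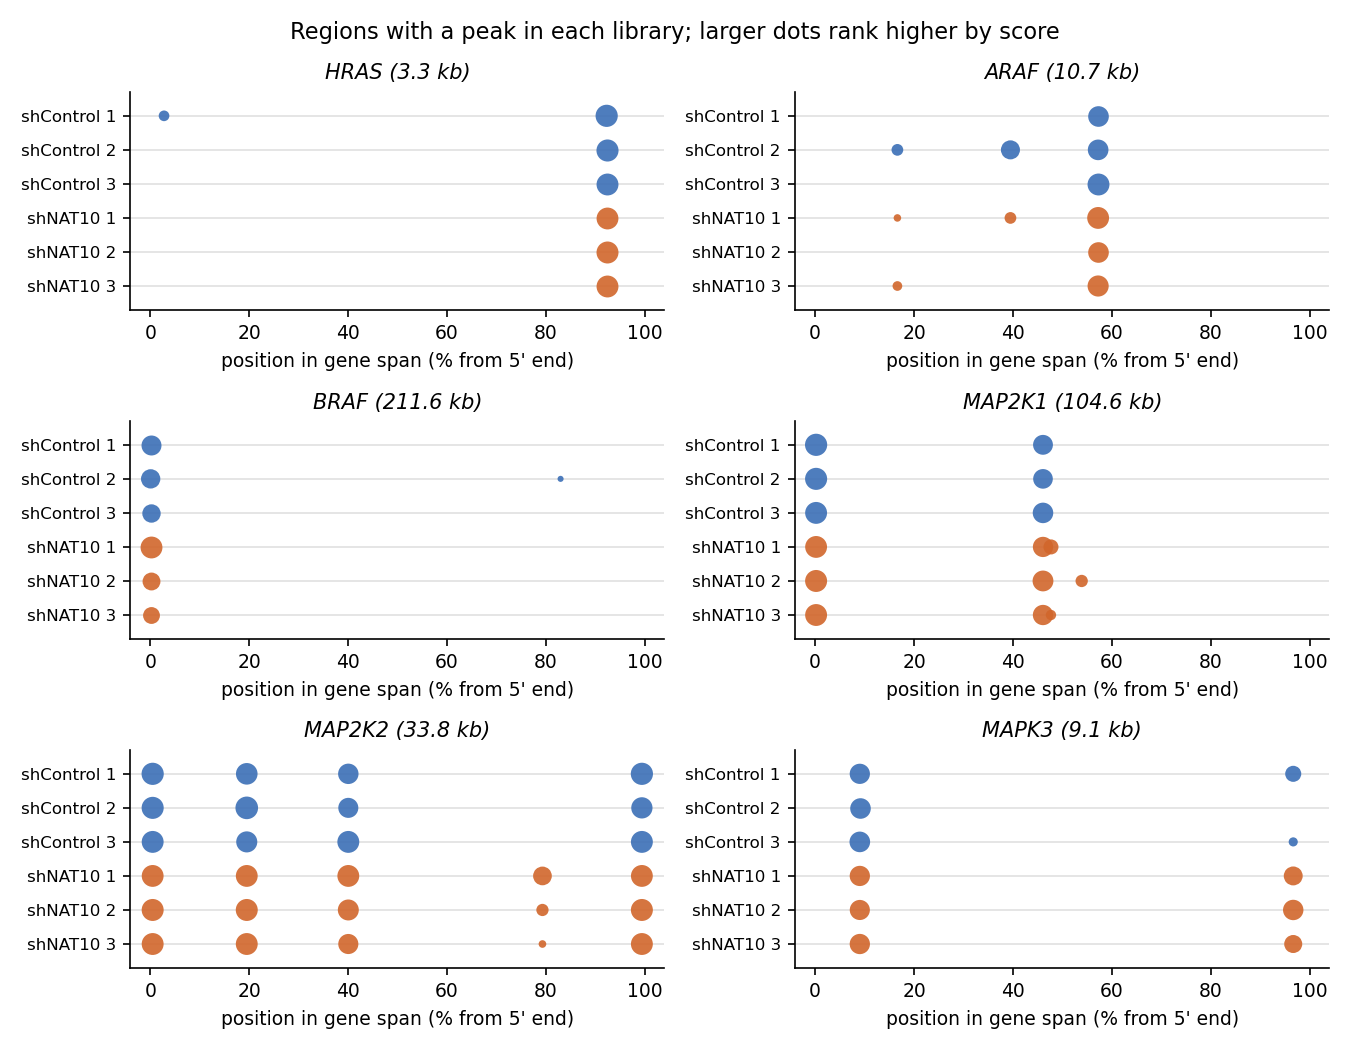
Position of each merged region along the 6 genes with a peak (x axis, percent of the gene span from the 5′ end) in each library (y axis; blue shControl, orange shNAT10), with dot area rising with the percentile of score. The large dots stand in the same columns in all 6 libraries, while the dot at 79.3% of MAP2K2 appears in the 3 shNAT10 libraries only.

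Both MEK genes had 1 peak more in every shNAT10 library than in any control library. MAP2K1, which encodes MEK1, a kinase that phosphorylates ERK on a threonine and a tyrosine, had 2, 2 and 2 peaks in control and 3, 3 and 3 after knockdown. MAP2K2, which encodes its paralog MEK2, had 4, 4 and 4 peaks in control and 5, 5 and 5 after knockdown. The difference was 1 peak for each gene, with an SD of 0 in each group (n = 3), and the two-sided exact permutation test gave p = 0.1 for each, the smallest value that 3 against 3 libraries allow, and an adjusted p of 1 over 9898 genes. Complete separation of the groups was thus seen in 2 of the 7 genes, both with shNAT10 higher. Over all genes with a peak it was seen with shNAT10 higher in 156 of 9898 (1.58%) and with shControl higher in 69 (0.697%), and among the 4906 genes with a peak in all 6 libraries 101 (2.06%) were higher in shNAT10. Every list was then shortened to its 17877 best-scored peaks, the length of the shortest list. The directions over all genes were nearly even, at 114 higher and 110 lower. Regions in all libraries of 1 group and none of the other were less even, with 238 in shNAT10 and 152 in shControl. With lists of that equal length the difference stayed at 1 peak in MAP2K1, with no overlap between the groups, and was 0.667 in MAP2K2, where the groups overlapped. The part of list length in the MEK counts was not tested further.

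**Figure D2:**
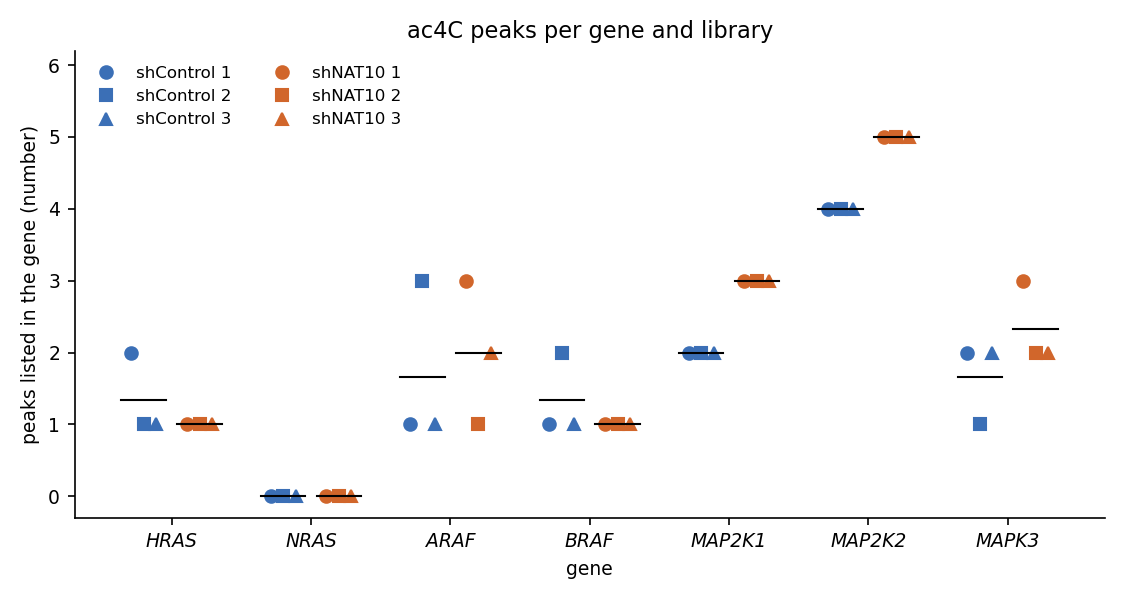
Number of listed ac4C peaks (y axis) in each of the 7 genes (x axis) for every library, with symbols for replicates 1 to 3 (blue shControl, orange shNAT10) and a bar at each group mean. In MAP2K1 the libraries stand at 2 and 3 and in MAP2K2 at 4 and 5, while the groups overlap in the other genes.

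The additional MAP2K1 peak was not the same peak in each library. Region 3, chr15:66436746-66436892, was listed in shNAT10 1 at percentile 40.1 and in shNAT10 3 at 15.0, and region 4, chr15:66443280-66443357, in shNAT10 2 at 24.5. Neither region was in a control library, and neither was in all 3 shNAT10 libraries (region 3, two-sided Fisher's exact test, p = 0.4). All 3 peaks lay in the lower part of their lists, and in the better-scored 50% of each list the difference in MAP2K1 peak number was 0. The peaks that MAP2K1 had in every library were region 1, chr15:66386817-66387427, which began before the annotated start and had a score of 3100 in all 6, and region 2, chr15:66435027-66435237. Region 2 ranked at 75.3, 73.5 and 80.9 in control and 78.7, 83.6 and 79.1 after knockdown, so the groups overlapped.

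In MAP2K2 the additional peak was the same in all 3 shNAT10 libraries. Region 4, chr19:4097279-4097343, 79.3% of the way along the gene on the minus strand, had no peak in a control library and was listed at percentiles 66.0, 24.2 and 5.00 in shNAT10 1, 2 and 3, with scores of 797, 121 and 60.2. The rank thus varied widely among the shNAT10 libraries, and its lowest value was close to the bottom of the list. The two-sided Fisher's exact test of presence gave p = 0.1, the smallest this design allows. Of 41755 regions, 342 (0.819%) were in all 3 shNAT10 libraries and no control library and 142 (0.34%) the other way round. Among the 18 regions in the cascade genes it was 1 and 0. The lowest percentile of the region over the shNAT10 libraries was below the median of 14.8 for the 342 such regions, and 67 of them (19.6%) had a lower one. In the better-scored 50% of each list, region 4 was in 1 of 3 shNAT10 libraries (33.3%), the difference in MAP2K2 peak number was 0.333 and its groups overlapped. With lists of equal length the region was in 66.7% of the shNAT10 libraries.

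The other 4 MAP2K2 regions were in every library. Region 1, chr19:4123784-4124129 at the 5′ end, had a score of 3100 in all 6. Region 2, chr19:4117419-4117629, ranked at 90.4, 99.9 and 85.7 in control and 92.7, 94.0 and 93.2 after knockdown. Region 3, chr19:4110509-4110655, ranked at 80.0, 76.9 and 93.2 in control and 92.7, 84.9 and 77.4 after knockdown. These ranges overlapped between the groups. Region 5, chr19:4090321-4090708, at the 3′ end of the gene, was at 3100 in 5 libraries and at percentile 87.3 in shControl 2. The paralogs shared a feature that the choice of genes did not use: region 2 was 211 bases long in both MAP2K1 and MAP2K2, and region 3 was 147 bases long in both. Region 3 was in all 6 libraries in MAP2K2 and in 2 shNAT10 libraries in MAP2K1. No exon annotation was used here, so whether these lengths are those of annotated exons was not tested.

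MAPK3, which encodes ERK1, the kinase at the end of the cascade, had 2, 1 and 2 peaks in control and 3, 2 and 2 after knockdown, with means of 1.67 ± 0.577 and 2.33 ± 0.577 (SD, n = 3; two-sided exact permutation test, p = 0.6). The added peak of shNAT10 1 was no new position. Region 1, chr16:30121824-30122968, was listed as 1 peak in 5 libraries and as 2 pieces with the same outer ends in shNAT10 1. By its higher-scored piece in shNAT10 1, region 1 ranked at 78.5, 81.4 and 81.8 in control and 78.6, 77.5 and 78.8 after knockdown, and the groups overlapped. The lower-scored piece in shNAT10 1 was at percentile 58.4. The 3′ region of MAPK3 was not listed in every library. Region 2, chr16:30114105-30114708, 96.7% of the way along the gene, was at percentiles 46.7 and 10.2 in shControl 1 and 3, had no peak in shControl 2, and was at 67.7, 80.0 and 60.8 after knockdown. The scores were 214 and 70.7 in the control libraries that listed it and 876, 1569 and 601 in the shNAT10 libraries. Every shNAT10 library thus ranked the region above the control libraries that listed it. Its presence, in 2 of 3 and 3 of 3 libraries, did not separate the groups (two-sided Fisher's exact test, p = 1).

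With a missing peak set to rank 0, 1603 of 19857 regions found in at least 3 libraries (8.07%) had all shNAT10 libraries above all control libraries, MAPK3 region 2 among them. This count was made after the values had been seen. It takes in by construction the 342 regions found in the shNAT10 libraries alone, MAP2K2 region 4 being one, whose order says nothing beyond their presence. Without shControl 2, limma's fit gave a rank difference of 41.0 percentile points (SE 13.0) for MAPK3 region 2, with an adjusted p of 0.676 over 9927 regions. In the better-scored 50% of each list, region 2 was in all 3 shNAT10 libraries and no control library, and the difference in MAPK3 peak number was 1.33, with no overlap between the groups. Both values follow from the percentiles given above for MAPK3 and add no further support. Over the whole series, that cut left 100 genes separated with shNAT10 higher and 176 regions in the shNAT10 libraries alone.

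**Figure D3:**
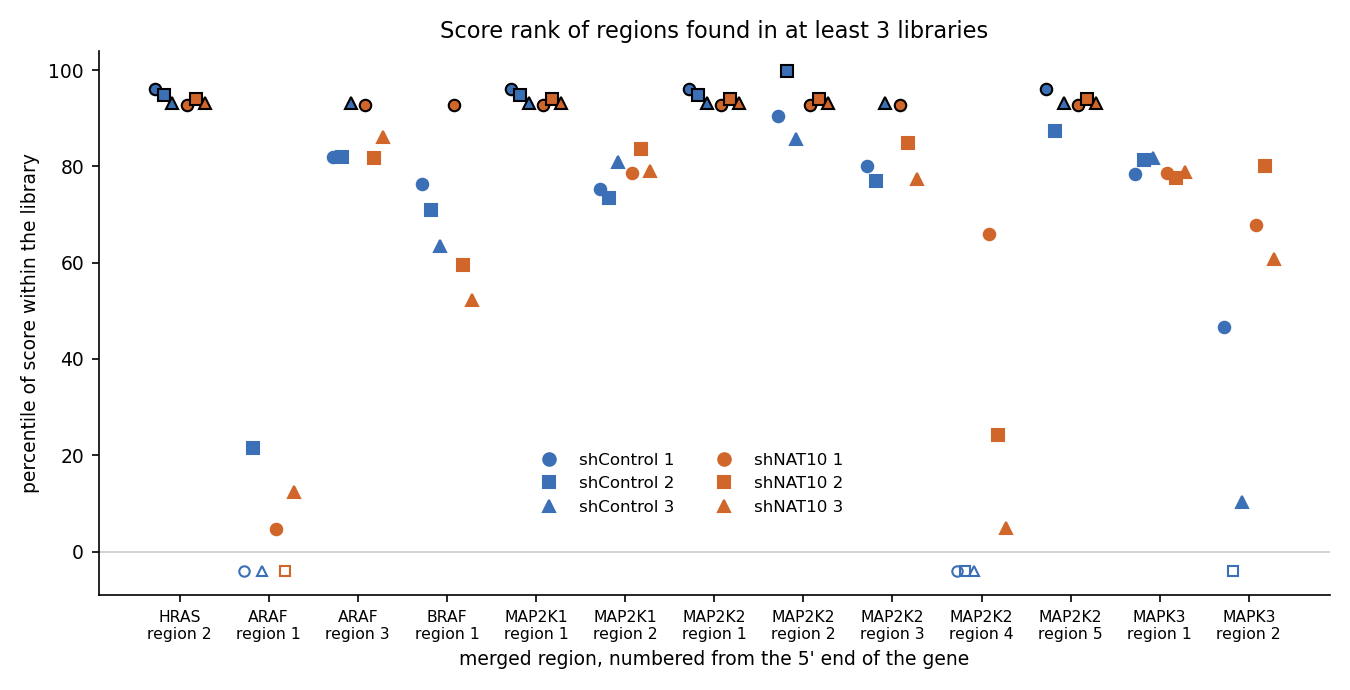
Percentile of score within its own library (y axis) for the 13 regions found in at least 3 libraries (x axis), with symbols for replicates 1 to 3 (blue shControl, orange shNAT10), black outlines at scores of 3100 or more and open symbols below 0 for no listed peak. The 3 regions at 3100 throughout are outlined in all 6 libraries, and in MAPK3 region 2 the shNAT10 libraries, at 60.8 to 80.0, lie above the control libraries, at 46.7 or less.

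The score rank of the 10 regions present in every library was then compared between the groups. In none of the 10 did all libraries of one group rank above all of the other, where over the 9195 shared regions this was so for 642 (6.98%) with shNAT10 higher and 372 (4.05%) with shControl higher. The rank differences, shNAT10 minus shControl, ran from -2.24 percentile points (SE 2.65) in MAPK3 region 1 to 3.87 points (SE 3.40) in MAP2K1 region 2, against a median of 0.704 over all shared regions. The limma adjusted p was between 0.862 and 0.962 for each of the 10. Over all shared regions limma called 0 of 9195 (0%) at an adjusted p under 0.05, the smallest adjusted p being 0.218, while 693 had an unadjusted p under 0.05. The least precise difference was that of BRAF region 1, -2.07 points (SE 11.4). The 3 regions at 3100 throughout, in HRAS, MAP2K1 and MAP2K2, share 1 difference of -1.36 points, which is set by how many peaks of each library reach that score. The lists give no input level, so more ac4C on a transcript and more of that transcript cannot be told apart.

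A wider set of 86 genes around the cascade, in 9 lists, was described in the same way. Of these, 71 had a known strand, 64 (90.1%) held a peak somewhere and 47 (66.2%) held one in each of the 6 libraries, against 62.5% and 31.0% of all genes. The mean peak number was higher after knockdown in 38 of the 64 and lower in 9, with a median difference of 0.333 peaks. Over all 9898 genes it was higher in 4416 and lower in 3127, with a median of 0. Both tallies rested on shNAT10 1, the longest list: without it the wider set had 24 higher and 23 lower, and all genes had 2825 higher and 4915 lower. The groups separated completely in 1 of the 64 with shNAT10 higher (1.56%, beside 1.58% of all genes) and in 0 with shControl higher. Of 254 regions in these genes, 3 (1.18%) were in all shNAT10 and no control libraries, near the share in all genes (281 of 33656, 0.835%), and 0 were the other way round, where all genes had 120.

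The gene whose groups separated was RALB, a small GTPase activated downstream of RAS, with 1, 3 and 3 peaks in control and 4, 4 and 4 after knockdown. Its means were 2.33 ± 1.15 and 4 ± 0 (SD, n = 3; two-sided exact permutation test, p = 0.1, adjusted p = 1). RALB had a region found in the shNAT10 libraries alone, chr2:120278615-120278778, at percentiles 41.1, 51.0 and 38.4. The other such regions were in MAP3K3, a kinase upstream of other MAP kinase modules, at percentiles 60.2, 13.1 and 3.10, and in MAPK9, which encodes the stress kinase JNK2, at 35.9, 5.55 and 12.7. Peak numbers of MAP3K3 (5, 3 and 5 in control, 7, 4 and 5 after knockdown) and MAPK9 (1, 2 and 2, then 5, 2 and 2) overlapped between the groups.

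No other gene of the lists separated. The tallies by list that follow include shNAT10 1 and its longer list unless said otherwise. Among adaptors and exchange factors, which load RAS with GTP, 4 of 6 genes had a peak, 1 with a higher and 2 with a lower mean after knockdown. For the RAS inhibitors, which include the GTPase-activating protein NF1 and the Sprouty proteins, it was 8 higher and 1 lower of 11 (4 and 5 without shNAT10 1), and NF1 itself had 2, 2 and 2 peaks in control and 3, 2 and 2 after knockdown. Of the RAS lipid-modifying enzymes 4 had a peak, each with a higher mean, but RCE1 and ICMT had their 1 peak in shNAT10 1, the longest list. Without that list it was 1 higher and 1 lower of 2. Scaffolds and RAF regulators had 1 higher and 3 lower of 7 (0 and 5 without shNAT10 1), among them the scaffold KSR1 with 0, 3 and 4 peaks in control and 1, 1 and 1 after knockdown. All 8 ERK-activated kinases had a peak in every library, 5 with a higher and 1 with a lower mean (4 and 3 without shNAT10 1). For the ERK phosphatases it was 3 higher and 0 lower of 4 (2 and 1 of 3 without shNAT10 1). The ERK-regulated transcription factors had 3 and 0 of 6 (2 and 1 without shNAT10 1), and the other MAP kinase modules 11 and 1 of 14 (8 and 3 of 12 without shNAT10 1). Over all genes without shNAT10 1, 30.6% were higher and 53.2% lower.

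Among the 342 genes with at least 5 peaks in each library, the peak numbers most like the summed number of the cascade genes over the 6 libraries were those of PRRC2B (Pearson's r = 0.980), PACSIN2 (r = 0.954) and CHID1 (r = 0.951). PRRC2B had 14, 15 and 13 peaks in control and 20, 15 and 16 after knockdown. These values describe likeness over 6 points that share the length of each library's list, and the genes were picked for it.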

How the data were processed

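RNA of SW620 cells was fragmented, precipitated with an ac4C antibody and sequenced. The authors called peaks in each library without pooling replicates and deposited 1 list per library marked as mRNA, with chromosome, start, end, strand and score. The deposited score is the caller's own value, and it was used here only as a mid-rank percentile within its library. The submitters' processing notes name GRCh38. The peak names are those of MACS; its version and settings and the aligner are not given in the sources used here. No file held counts, so no interval or floor that needs depth is given.

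The genes and pathway lists were chosen with earlier results of these data known, which applies to every list here. Gene spans came from a RefSeq GRCh38.p14 table and strands from RefSeq start windows, which gave a strand for 15843 of 20037 protein-coding genes. The other genes were not used, except that markers were counted on either strand. Same-strand peaks sharing 1 or more bases were joined into regions. An exact permutation test (two-sided) compared the peak number per gene, with Benjamini-Hochberg adjustment over all genes tested. Fisher's exact test (two-sided) compared presence in the cascade regions only, without adjustment. The percentile in regions found in all 6 libraries was fitted with limma (lmFit and eBayes), with Benjamini-Hochberg adjustment over all those regions. With 3 against 3 libraries the first 2 tests cannot go below 0.1, so complete separation of the groups was counted. The genes named were the 7 cascade genes, the pathway genes that separated in peak number or had a region in 1 group only, NAT10, and the 3 genes of most similar peak number. NF1, RCE1, ICMT and KSR1 were named after their values were seen. Alternatives were the better-scored 50% of each list, equal peak numbers, other rules for strand, overlap and assignment, other scales of the rank, a block for the replicate number, and leaving out libraries in turn. A further pair, counting merged regions in place of peaks and ranking regions found in at least 3 libraries with a missing peak at 0, were chosen after seeing the data. The code was tested on simulated data. Python 3.11.15 with numpy 2.4.6, pandas 2.3.3, scipy 1.17.1 and matplotlib 3.10.9, and R 4.3.3 with limma 3.58.1, were used.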

Additional observations from a re-analysis of the deposited data

How the results depend on the processing

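In the better-scored 50% of each list, the groups separated in 145 genes in place of 225 and in 260 regions in place of 484, and in 1 cascade gene in place of 2: MAPK3, while MAP2K1 and MAP2K2 overlapped. With equal peak numbers, the groups separated in 224 genes and 390 regions, among them 1 cascade gene (MAP2K1) and 0 cascade regions. With those lists limma called 1 of 7993 shared regions, not in the cascade. Except where a total is printed, the totals of genes and merged regions tested are not given for the settings of this section. Counts of separated ones without a total are not shares. Under each of these settings, the better-scored 50% and equal peak numbers, the ARAF difference in peak number turned from 0.333 to -0.333. Ranking regions found in at least 3 libraries, with a missing peak at 0, gave 2400 separated regions in place of 1014, and 2 in the cascade in place of 0. On normal scores of the rank, BRAF region 1 changed sign to 0.0472 and MAP2K2 region 2 to -0.287.

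For peak number, same-numbered libraries were not the best matches: the correlation of their deviations was below 0 for numbers 1 and 2 (-0.102 for number 2) and 0.00332 for number 3. For the score percentile it was 0.0018, -0.0555 and 0.0623 for numbers 1, 2 and 3, and only number 3 was a best match. These values cannot show whether libraries were handled in pairs. With the replicate block, all 3 same-numbered differences ran one way in 412 genes, MAP2K1 and MAP2K2 among them (p = 0.25 by exact sign-flip permutation, which cannot go lower), and limma called 0 regions, 602 having an unadjusted p under 0.05.

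Leaving out each library in turn leaves fewer libraries to separate. The number of genes ran from 453 to 629 and of regions from 936 to 1359, the cascade genes stayed at 2, and the cascade regions ran from 1 to 2, the second being MAP2K1 region 3 without shNAT10 2. Without shNAT10 1 the genes were 230 higher and 388 lower, and the ARAF difference was -0.167, the others reaching 1. Rank differences ran from -1.71 to 5.01 points in ARAF region 3, -14.4 to 5.92 in BRAF region 1, and -1.83 to 5.24, -2.26 to 6.52 and -1.28 to 3.03 in MAP2K2 regions 2, 3 and 5, none of them called. The cause of these changes was not tested. Counting either strand, any overlap, peaks in 1 gene only or merged regions in place of peaks left the number of separated cascade genes at 2.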
